A study of Mus musculus with 2 samples.

Results

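A precursor hairpin of a microRNA (miRNA) can give a mature miRNA from each of its arms, named 5p and 3p. The arms measured here are those of the mouse precursors miR-151, miR-324, miR-345 and miR-582, compared in RNA captured with a Stat3 mRNA probe and with a control probe. They were found as the rows of the authors' deposited table whose names equal 9 listed assay names, of 384 assays in all and 376 miRNA assays. Of the 9 assays, 8 carry mouse names, and 1, for miR-345-5p, carries a rat name. The members were chosen by their measured Ct and ratio in both pull-downs, which had shown signal on both arms, so the levels and ratios below are a description and carry no test. Both pull-downs came from RAW264.7, a macrophage cell line derived from a mouse tumour induced by Abelson leukaemia virus. In either case the cells carried a transfected probe for 24 hours, streptavidin beads collected the RNA bound to it, and Exiqon multiplex arrays read the miRNAs by SYBR green PCR. One group is 1 pull-down made with the control probe, and the other is 1 pull-down made with the Stat3 probe. The series set out to find miRNAs associated with Stat3 mRNA, which encodes a transcription factor switched on by cytokine receptors.

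The enzymes Drosha and Dicer cut a precursor into a short duplex, in which the 5p strand is paired with the 3p strand. As a rule 1 strand is kept by an Argonaute protein as the guide, and the other, the passenger, is mostly lost, although some precursors supply guides from both arms. A guide finds its mRNA targets mainly through its seed, bases 2 to 8, so the arms of 1 hairpin recognise different sites. Both arms are cut from the same transcript.

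RefSeq sequences (build GRCm38.p6) were matched by name for 6 of the 9 assays, the arms of miR-324, miR-345 and miR-582. They are shown because the seeds, in capitals, are what distinguishes the arms of 1 hairpin as binders of mRNA.
mmu-miR-324-5p: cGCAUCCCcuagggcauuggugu
mmu-miR-324-3p: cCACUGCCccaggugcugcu
mmu-miR-345-5p: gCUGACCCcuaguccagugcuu
mmu-miR-345-3p: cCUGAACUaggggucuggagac
mmu-miR-582-5p: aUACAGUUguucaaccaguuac
mmu-miR-582-3p: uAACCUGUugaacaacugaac

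The 6 seeds all differ. None of them was found in another of the 1679 mature mouse miRNAs of the RefSeq table. The arms of miR-582 are poor in G and C, with a GC share of 36.4% for 5p and 38.1% for 3p. The miR-324 arms are richer, at 60.9% for 5p and 70.0% for 3p, and both miR-345 arms stand at 59.1%. The median over the table is 52.2%, with quartiles of 45.5% and 60.0%. miR-582-3p begins with U and miR-582-5p with A, whereas the arms of miR-324 begin with C, as does miR-345-3p, and miR-345-5p begins with G. Between precursors, the longest shared stretch is CCCCUAG, 7 bases present in both miR-324-5p and miR-345-5p.

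The hairpins show how the arms lie opposite each other, with both mature arms in capitals.
Mir324, chr11:70012043-70012131, plus strand: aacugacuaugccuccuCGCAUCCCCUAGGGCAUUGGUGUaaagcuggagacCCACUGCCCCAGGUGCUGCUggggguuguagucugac
Mir345, chr12:108836973-108837068, plus strand: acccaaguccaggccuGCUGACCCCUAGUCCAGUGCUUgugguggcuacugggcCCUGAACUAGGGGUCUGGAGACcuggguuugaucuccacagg
Mir582, chr13:109324744-109324824, plus strand: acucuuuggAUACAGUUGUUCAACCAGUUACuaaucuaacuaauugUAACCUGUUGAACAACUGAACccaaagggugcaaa

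In the minimum free energy fold, 15 base pairs join the arms of miR-324, 14 those of miR-345 and 16 those of miR-582. The stretch between the arms is 12, 16 and 15 bases long in that order. In the RefSeq gene table Mir324 overlaps Acadvl, which encodes a mitochondrial enzyme of fatty acid oxidation. Mir582 lies within the bounds of Pde4d, which encodes a phosphodiesterase that degrades cyclic AMP. No other gene of the table overlaps Mir345.

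Each plate of 384 wells gave a threshold cycle (Ct) per assay, where less template needs more cycles and a step of 1 cycle is a factor of 2 if amplification is complete. Assays can differ in efficiency, so which arm has the lower Ct on a plate does not give the more abundant arm, whereas a ratio compares an assay with itself. An assay counts as measured when its Ct is below 35. That held for 121 wells of the control plate and 132 of the Stat3 plate. Ratios set the Stat3 probe over the control probe and follow the authors' deposited table, whose values raise 2 to the power of 0.7 plus the control Ct minus the Stat3 Ct, with any Ct above 35 set to 35. With 1 pull-down per probe the ratios have no replicate check, and in bulk RNA fewer cells and less RNA per cell cannot be told apart. The only error measured is the spread of UniSp3, a calibrator template that is the same in 3 wells of each plate. Its Ct difference between plates (control minus Stat3) was -0.89 ± 0.97 cycles (SD, n = 3 wells), and the wells lay up to 1.93 cycles apart. The wells in rows C and E lay 0.78 cycles apart, and the other is in row B. UniSp3 came at 21.18 to 23.67 cycles, earlier than every arm assay. The spread at the later Ct of the arms, and that between repeated pull-downs, was not measured. Ratios also differed between alternate plate rows, with a median of 5.01-fold over 74 miRNA assays in the odd rows (A, C, E to O) and of 1.80-fold over 26 in the even rows (B, D, F to P). Of the 9 arm assays, 8 lie in even rows and 1, miR-324-5p, in an odd row, and the part of the row difference in their ratios was not tested. Of the 5 miRNAs listed for macrophages 4 were measured in both pull-downs, all but miR-142-5p. Of the 8 listed for other cell types 3 were measured in both (miR-200c, miR-126-3p and miR-451), 2 only with the control probe, and the 3 muscle miRNAs in neither.

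The precursors behaved in different ways. The ratio of the 3p arm was far above that of the 5p arm for miR-151 and moderately above it for miR-324. The reverse order was seen for miR-345, and for miR-582 both arms had low ratios. Of the 9 assays, 7 were measured in both pull-downs while miR-151-3p and the mouse-named miR-345-5p, the other 2, lacked a control Ct below 35. At least 2-fold higher ratios, bounds included, were found for 6 of the 9, where 69.1% of the 139 miRNA assays measured in at least 1 pull-down reached this. Over those measured in both, it was 4 of 7 against 73.0% of 100 miRNA assays, and 0 were at least 2-fold lower against 2.00%. In even rows it was 3 of 6 against 46.2% of 26, and in odd rows 1 of 1 against 82.4% of 74. The median ratio of these 7 was 2.58-fold, and that of the 100 was 4.22-fold. On the log2 scale, setting the ratios against the median of all 100 takes 2.08 from each, against the mean of 4 reference miRNAs 2.57, and against that of 3 references 1.55, while the calibrator adds 0.19. A difference between arms is the same on all these scales. Of the 9 arms, only miR-151-3p and miR-324-3p were above 0 on every scale tried, plate rows included, and only miR-582-5p was below 0 on every one.

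**Figure D1:**
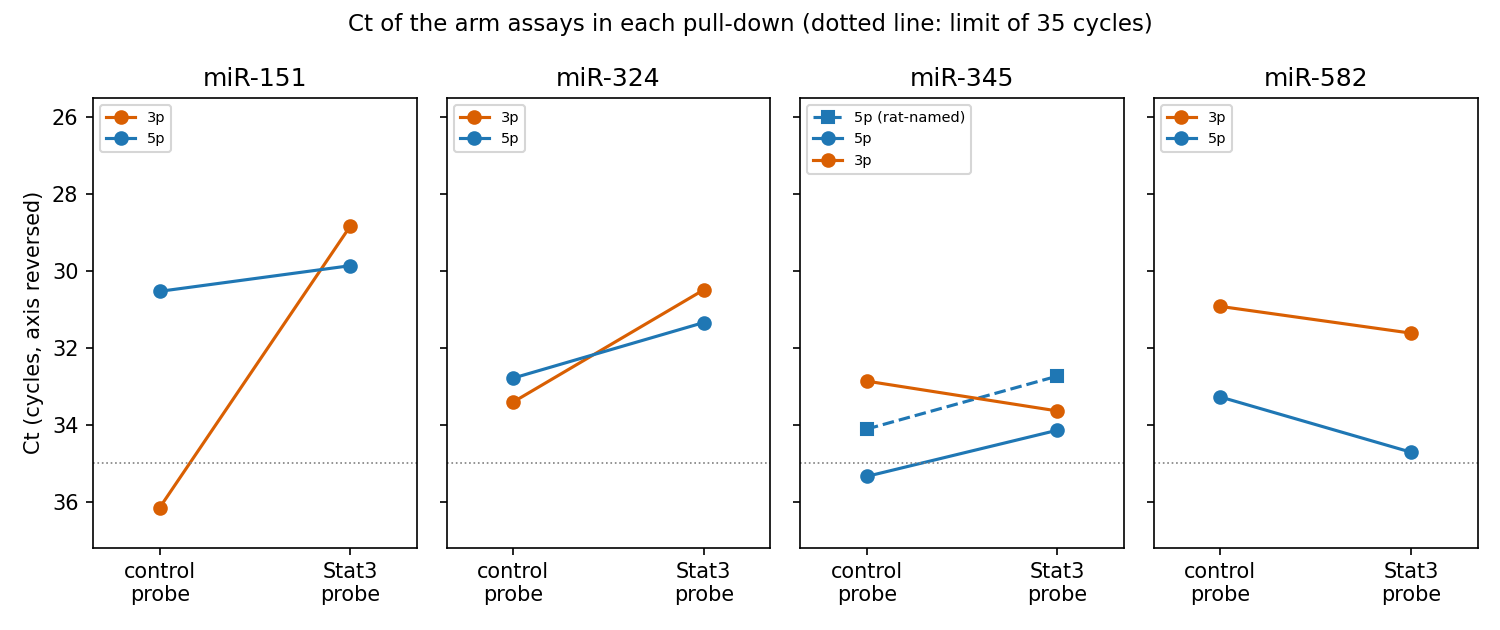
Ct (cycles, axis reversed so that more template is higher) of each arm assay in the control and the Stat3 pull-down, 1 well per point, with 5p in blue, 3p in orange, the rat-named assay as dashed squares and the limit of 35 cycles dotted. The lines of the arms cross for miR-151 and miR-324, run apart without crossing for miR-582, and for miR-345 cross only with the rat-named 5p assay.

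miR-151, which is known for promoting cell migration in liver tumours through its 5p arm, had the widest gap between its arms. miR-151-5p was at 30.53 cycles (control probe) and 29.86 cycles (Stat3 probe), which gives a ratio of 2.58-fold. It was thus well within reach of the assay in either pull-down and moved by only 0.67 cycles between them. miR-151-3p was at 36.16 cycles (control probe) and 28.84 cycles (Stat3 probe). With the control value at the limit of 35 its ratio was at least 116-fold, the highest of the 139 miRNA assays with Ct so limited. For the 25 assays measured only with the Stat3 probe, this one included, the ratio is a lower bound. The rank thus orders bounds together with values. With the Ct as measured the ratio of miR-151-3p was 260-fold. The ratio of 3p was at least 45.1-fold that of 5p, or 101-fold with the Ct as measured. On the log2 scale the ratio of 5p minus that of 3p was at most -5.49, beyond the 1.93 cycles between calibrator wells. The order of the arms in Ct turned over, since 3p came 5.63 cycles after 5p with the control probe and 1.02 cycles before it with the Stat3 probe. Both assays lie in even rows (F and L), so the gap is the same against the median of the rows. The size of the gap rests on 1 well of the control plate with little template: with the limit at 33 cycles the difference was at most -3.49, a weaker bound.

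miR-324, whose 5p arm is known to restrain Hedgehog signalling through Gli1 and Smo, had ratios above 1 on both arms, though against 4 reference miRNAs the log2 ratio of 5p was -0.43. miR-324-5p was at 32.79 cycles (control probe) and 31.34 cycles (Stat3 probe), which gives a ratio of 4.42-fold, close to the 4.22-fold median of all miRNAs. miR-324-3p was at 33.41 and 30.49 cycles in the same order, a ratio of 12.3-fold. The 3p arm was the later of the pair by 0.62 cycles with the control probe and the earlier by 0.85 cycles with the Stat3 probe. The ratio of 3p was 2.78-fold that of 5p, a difference of -1.47 on the log2 scale for 5p minus 3p, which is within the calibrator range. These arms lie in different sets of rows, 5p in row K and 3p in row F. With each arm set against the median of its own rows, 5p was at 0.882 and 3p at 6.81 times that median. The difference was then -2.95, which is beyond the calibrator range, a range that itself spans both sets of rows.

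miR-345 was the precursor with the higher ratio on its 5p arm, and by name it has 2 assays for that arm. The mouse-named miR-345-5p assay was at 35.35 cycles (control probe) and 34.15 cycles (Stat3 probe), which gives a ratio of at least 2.94-fold and of 3.74-fold with the Ct as measured. The rat-named miR-345-5p assay was at 34.11 and 32.74 cycles in the same order, a ratio of 4.22-fold. Both assays for 5p thus had a lower Ct with the Stat3 probe. The mouse-named assay came later than the rat-named one by 1.23 cycles with the control probe and 1.41 cycles with the Stat3 probe, so the distance between them was nearly the same on both plates, and their log2 ratios from the Ct as measured differed by 0.18. By their names they read the same arm, so they are not taken as independent of each other. No sequence was matched for the rat-named assay, so this was not checked. miR-345-3p went the other way in Ct, from 32.87 (control probe) to 33.64 (Stat3 probe), which gives a ratio of 0.949-fold. For 5p minus 3p the difference in log2 ratio was at least 1.63 with the mouse-named assay, a bound within the calibrator range, and 1.98 with its Ct as measured. With the rat-named assay it was 2.15. Both of the latter values lie beyond that range, the 1.98 only just and with a control Ct above 35. With the limit at 33 cycles only a weaker lower bound on the gap remained, since 1 Ct of either assay was cut. The log2 ratio was then at least 0.96 for the rat-named assay and at most 0.57 for 3p. All 3 assays lie in even rows. The mouse-named 5p assay came after 3p on both plates, by 2.48 and 0.50 cycles, while the rat-named one came after 3p by 1.25 cycles with the control probe and before it by 0.91 cycles with the Stat3 probe. Which arm had the lower Ct with the Stat3 probe therefore depended on the assay used, whereas the sign of the difference in ratio did not.

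miR-582 had low ratios on both arms and kept the order of its arms. miR-582-3p was at 30.92 cycles (control probe) and 31.62 cycles (Stat3 probe), which gives a ratio of 1.0-fold. The equality comes from the offset of the deposited scale, since the Ct itself was 0.70 cycles later with the Stat3 probe. miR-582-5p was at 33.28 cycles (control probe) and 34.72 cycles (Stat3 probe), which gives a ratio of 0.601-fold, the lowest of the 9. The 5p arm came after 3p by 2.36 cycles with the control probe and 3.10 cycles with the Stat3 probe. The difference in log2 ratio was -0.74 for 5p minus 3p, within the calibrator range, which spans both sets of rows. Both arms lie in even rows. Against the median of those rows miR-582-3p was at 0.556 and miR-582-5p at 0.333 times. These are the arms with the sequences poorest in G and C among the 6 shown. The miR-582-5p value with the Stat3 probe lies close to the limit of 35 cycles, and with the limit at 33 no ratio could be given for it.

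**Figure D2:**
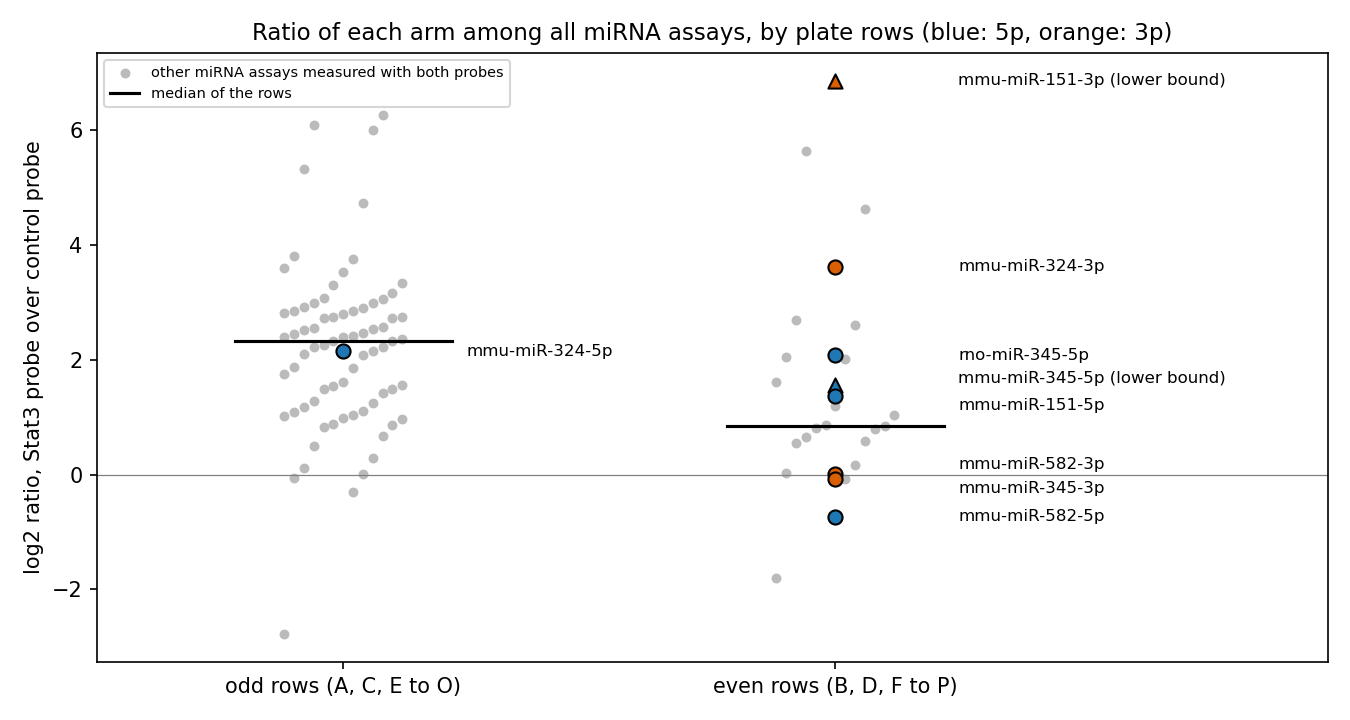
Log2 ratio of Stat3 probe over control probe for the 9 arm assays (blue 5p, orange 3p, triangles for lower bounds) and, in grey, the other miRNA assays measured with both probes, by alternate plate rows, with the median of each set as a bar. miR-324-5p lies just below the bar of its rows at 2.14, and in the other rows the arms spread from -0.74 for miR-582-5p to at least 6.86 for miR-151-3p.

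In the order of ratios, miR-151-3p stood apart, at least 3.24 log2 units above miR-324-3p. No other neighbours in that order lay further apart than the calibrator wells. From miR-324-3p the order ran through miR-324-5p, the rat-named and the mouse-named miR-345-5p assays and miR-151-5p to miR-582-3p, miR-345-3p and miR-582-5p. The largest step among these was 1.47, between the arms of miR-324, and the next was 1.36, between miR-151-5p and miR-582-3p. Against the median of their own plate rows 5 of the 9 were higher, namely miR-151-3p, miR-324-3p, both miR-345-5p assays and miR-151-5p. miR-324-5p, miR-345-3p and both arms of miR-582 were lower. By arm, the highest ratios belonged to 3p arms of miR-151 and miR-324, yet 2 of the 3 lowest were also 3p arms, so no arm was the higher one throughout.

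The assay nearest in both Ct values, with Ct limited to 35, was sought for each arm among the other miRNA assays tied to a single well. The likeness rests on 2 pull-downs and is a distance in cycles. miR-324-3p lay nearest to miR-18a*, at 0.14 cycles, and miR-151-5p to miR-146a, also at 0.14 cycles. miR-151-3p lay nearest to miR-184, at 0.45 cycles, an assay that was likewise measured only with the Stat3 probe. miR-582-3p was nearest to miR-101b (0.31 cycles), miR-582-5p to miR-219-5p (0.32 cycles), and miR-345-3p to miR-486 (0.45 cycles). Of these, miR-219-5p had no Ct with the Stat3 probe and was set to 35 there. miR-324-5p was nearest to miR-652 (0.53 cycles), the mouse-named miR-345-5p assay to miR-30e (0.32 cycles) and the rat-named one to miR-186 (0.44 cycles). The mouse-named miR-345-5p assay and miR-30e had control Ct of 35.35 and 36.86, both set to 35. Their distance, like that of miR-151-3p and miR-184, is therefore that in Stat3 Ct alone. The nearest assay of an arm was in no case the other arm of its precursor.

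Of the 31 precursors with both arms on the plate under names of the same species, 7 had both arms measured in at least 1 pull-down. These are the 4 described and miR-18a, miR-139 and miR-423. miR-18a and its star strand, with Ct values of 30.82 and 33.52 on the control plate and 30.69 and 30.41 on the Stat3 plate, also changed order, and their log2 ratios differed by 2.98. This change of order was thus seen for miR-151, miR-324 and miR-18a, 3 of the 7. For miR-423 the 3p arm came first on both plates and the log2 ratio of 5p minus 3p was at least -3.61 with the control value of 5p at the limit, or -3.35 with the Ct as measured. For miR-139 the 5p arm came first on both plates, and the sign of the difference was not settled, at most 1.13 with the limit and -3.32 without it. With Ct limited to 35 and no correction for rows, the gap of miR-151 was the widest of the 7, and that of miR-582 the narrowest. This order takes bounds as values. The bound of miR-139, at most 1.13, leaves room for a gap narrower than the 0.74 of miR-582. Against the plate rows that bound was -0.34.

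**Figure D3:**
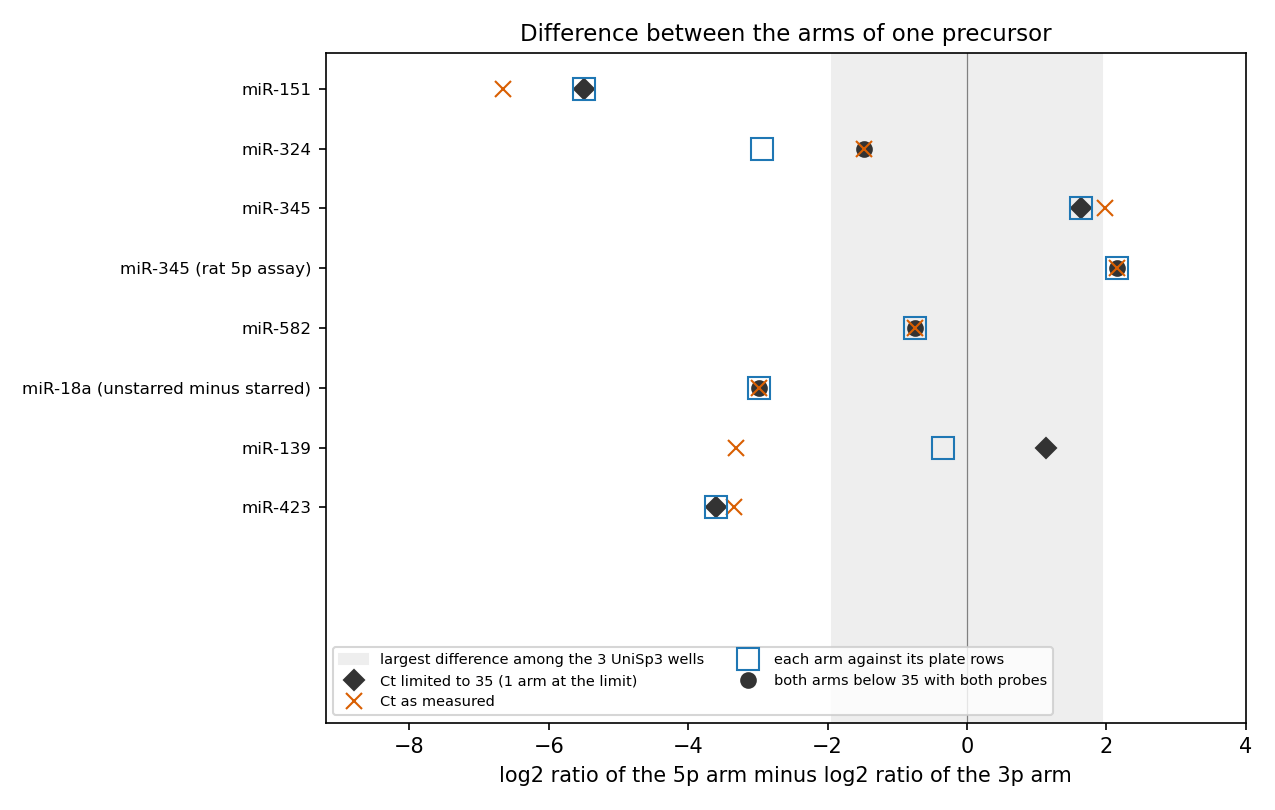
Log2 ratio of the 5p arm minus that of the 3p arm (for miR-18a, unstarred minus starred) for the 7 precursors and for miR-345 with the rat-named 5p assay. Filled symbols have Ct limited to 35 (diamonds where 1 arm is at the limit), crosses use Ct as measured, open squares set each arm against its plate rows, and the grey band spans ±1.93, the calibrator range. The values of miR-151, miR-18a and miR-423 lie outside the band on the negative side. miR-324 does so only against its plate rows, and miR-139 only with Ct as measured (-3.32). miR-345 is positive throughout. It lies beyond the band with the rat-named assay (2.15), and with the mouse-named one only with Ct as measured (1.98).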

How the data were processed

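The deposited plate files are exports of SDS 2.3, per the file headers, and hold 1 raw Ct per well, in cycles, with a manual threshold of 0.15 and no normalization. The deposited table of the authors holds 1 ratio per named assay, Stat3 probe over control probe. Its header calls it a log fold change, but the values are linear: sorted, they equal, within 0.0005, the power of 2 whose exponent is 0.7 cycles plus the Ct difference (control minus Stat3), with Ct limited to 35. Neither the offset nor the limit is stated in the sources used here. Names were tied to wells by this identity (tolerance 0.0006). All 9 arm assays matched exactly 1 well, and none of these wells carried an instrument warning. The UniSp6 spike-in, whose ratio equals that of miR-451, was taken as the well with the lowest Ct. Everything was recomputed in Python 3.11.15, and hairpins were folded with RNAfold 2.7.2. The matching was tested on simulated data. Members and lists were chosen with earlier results of these data known. Named assays are the 9 members, other precursors with both arms on the plate, and the nearest assay of each member. No test between 1 pull-down and 1 pull-down is possible, so no p-value is given. The alternatives were other Ct limits, no offset, scaling to all miRNAs, plate rows, reference miRNAs or the calibrator, and the rat-named assay.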

Additional observations from a re-analysis of the deposited data

How the results depend on the processing

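The sign of every arm difference held under each alternative that gave a value. For miR-151 the difference was -6.65 with the limit at 40 cycles and at most -3.49 at 33, where the control Ct of 3p was cut. For miR-324 it was -2.95 against the medians of the plate rows. It was also -2.95 with the members left out of those medians, an alternative chosen after seeing the data. At 33 cycles miR-345 (mouse-named) and miR-582 gave no difference. Of the 9 arms, 6 were at least 2-fold higher on the deposited scale. That number was 2 against the median of all miRNAs, against 4 reference miRNAs (miR-103, miR-191, miR-423-3p, miR-16) and against these without miR-423-3p, and 3 against the plate rows, with or without the members. It was 4 with no offset. At 33 cycles it was also 4, but there the mouse-named miR-345-5p and miR-582-5p gave no ratio. The rat-named miR-345-5p, not among these 4, was there only bounded, at 0.96 or more on the log2 scale. Shares over all miRNA assays are given only for the deposited scale, so the counts on the other scales have no background beside them. Among the 6 arms at least 2-fold higher, the log2 ratios that changed sign were those of miR-151-5p (-0.71 against all miRNAs, -1.20 against 4 references, -0.18 against 3), miR-324-5p (-0.18 against its plate rows, -0.19 without members, -0.43 against 4 references), the mouse-named miR-345-5p (-0.52 against all, -1.02 against 4 references) and the rat-named one (-0.49 against 4 references). Near 0, miR-345-3p (-0.075) was at 0.11 against the calibrator. At 33 cycles miR-345-3p was at most 0.57, an upper bound that does not give its sign. Also near 0, miR-582-3p (0.005) lay below 0 with no offset (-0.70), against its plate rows (-0.85), all miRNAs (-2.07), 4 references (-2.57) and 3 (-1.55). No paired analysis was possible because each probe has 1 pull-down. Depth limits miR-151-3p and the mouse-named miR-345-5p, whose control Ct lay above 35.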

Other observations

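Of the 27 other precursors with both arms on the plate, 17 had neither arm below 35 cycles in any pull-down and 7 had only 1 arm there. In the latter the measured strand was miR-125a-5p, miR-142-3p, miR-20a, miR-339-5p, miR-362-3p, miR-425 or miR-9, and the opposite strand stayed at 35 cycles or later with either probe. For miR-142, abundant in blood cells, that was the 5p arm.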
